A study of Mus musculus with 8 samples.

Results

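The 10 genes described here carry vitamin B12 (cobalamin) into the cell and bring it to the enzymes that use it: Cd320, Tcn2, Lmbrd1, Abcd4, Abcc1, Mmachc, Mmadhc, Mmaa, Mmab and Mut (now named Mmut). They were chosen by name, not by a measured value, although earlier results of these data were known. Each was followed along its longest protein-coding transcript in GENCODE M21 on the mouse build mm10. They were read against 8766 marked genes, the protein-coding genes of at least 4 exons with at least 10% of the body inside called peaks in at least 1 library. Those came from 16332 protein-coding genes of at least 4 exons and 21853 protein-coding genes in all. All 10 vitamin B12 genes met both conditions, Cd320 and Mmachc by way of only some of the libraries.

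Vitamin B12 circulates bound to transcobalamin, and cells take up the complex through a surface receptor. The vitamin is freed in the lysosome, exported to the cytosol, stripped of its upper ligand and handed either to cytosolic methionine synthase or to mitochondrial methylmalonyl-CoA mutase. Methionine synthase feeds the methyl cycle that makes S-adenosylmethionine, the methyl donor for histone methylation, and trimethylation of histone H3 at lysine 36 (H3K36me3) is laid down behind elongating RNA polymerase II, so that it marks the bodies of transcribed genes towards their ends.

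H3K36me3 ChIP–seq was performed on mouse embryonic fibroblasts (MEFs) from 1 E13.5 embryo, labelled Clone 1, which carried the i4F transgene, a cassette that expresses OCT4, SOX2, KLF4 and MYC (OSKM) when doxycycline is added. All 4 conditions shared this genotype, the medium used to derive induced pluripotent stem cells and a harvest at 72 h. MEF had no addition, MEF B12 received 2 µM vitamin B12, OSKM received doxycycline at 1 µg/mL, and OSKM B12 received both. That doxycycline unit is the one in the labels, and the study's methods print mg/ml instead. With only 1 H3K36me3 library and 1 input per condition, no difference has a replicate check, no test was run, and the intervals given cover counting error only. The study took these fibroblasts, of the embryos it followed, because they reprogrammed best. The protocol text in the labels spells the antibody H3K3me3, while the antibody field reads H3K36m3.

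The H3K36me3 libraries held between 29046913 and 33399267 tags, with OSKM the deepest, and 65473 to 69420 peaks on the assembled chromosomes. The OSKM library stood apart in the length called: 92.8 Mb lay in peaks, against 154 Mb in MEF and 166 Mb in both B12 libraries. Of the fibroblast markers, 8 of 8 had a peak in every library, with mean covered shares of 74.3% in MEF, 76.0% in MEF B12, 64.0% with OSKM and 76.2% with OSKM B12. Endogenous Pou5f1 and Sox2, Nanog and Esrrb had no peak in any library, and of the 5 pluripotency markers only Zfp42 had one, over 2.42% of its body in OSKM. None of the 4 epithelial and 2 endothelial markers had a peak. Of the blood markers Cd68 was covered (76.0% to 100%) and Ptprc was not, and of the neural markers Tubb3 was covered outside OSKM (25.1% to 31.7%) and Nes was not. In a bulk population, fewer marked cells and less mark per cell cannot be told apart.

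Reference sequence (GRCm38.p6, the assembly of mm10) is shown for 3 windows on which the description turns. The Cd320 window lay in a peak in MEF, MEF B12 and OSKM B12 and in none in OSKM. The Mmachc window lay in a peak in MEF B12, OSKM and OSKM B12 and in none in MEF. The Mmab window lay in a peak in each of the 4 libraries, at the member with the highest fold enrichment in MEF. Each is 300 bases long and reads 5′ to 3′ on the strand of the gene, with coding bases in capitals and introns in lower case.
Cd320, chr17:33847975-33848274, plus strand, exon 4 and flanking introns: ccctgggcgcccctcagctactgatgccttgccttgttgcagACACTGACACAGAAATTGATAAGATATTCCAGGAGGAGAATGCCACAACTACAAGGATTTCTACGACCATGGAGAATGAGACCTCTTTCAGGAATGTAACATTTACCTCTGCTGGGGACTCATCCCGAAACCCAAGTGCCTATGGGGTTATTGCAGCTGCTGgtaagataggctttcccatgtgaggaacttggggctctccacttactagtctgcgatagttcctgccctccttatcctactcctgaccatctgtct
Mmachc, chr4:116703471-116703770, minus strand, within the coding part of exon 4, the last exon: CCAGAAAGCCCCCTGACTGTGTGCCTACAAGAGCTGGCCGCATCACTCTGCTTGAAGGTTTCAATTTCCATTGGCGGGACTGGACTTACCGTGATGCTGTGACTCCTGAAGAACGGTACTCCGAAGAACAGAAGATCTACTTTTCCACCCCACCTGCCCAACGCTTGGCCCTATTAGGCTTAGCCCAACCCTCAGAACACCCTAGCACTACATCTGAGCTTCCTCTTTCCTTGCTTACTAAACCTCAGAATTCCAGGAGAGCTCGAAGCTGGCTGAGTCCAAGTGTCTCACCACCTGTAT
Mmab, chr5:114436362-114436661, minus strand, exon 7 and flanking introns: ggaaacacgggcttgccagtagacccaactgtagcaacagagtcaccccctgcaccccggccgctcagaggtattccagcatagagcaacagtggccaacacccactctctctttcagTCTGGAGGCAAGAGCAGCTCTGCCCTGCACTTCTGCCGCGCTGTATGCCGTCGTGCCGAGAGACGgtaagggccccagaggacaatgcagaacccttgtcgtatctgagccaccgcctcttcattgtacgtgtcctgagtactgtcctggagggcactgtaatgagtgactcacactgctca
The windows differ in how much of them is coding, from 65 bases in Mmab to all 300 in Mmachc, and their GC content ran from 49.7% (Cd320) to 57.7% (Mmab). No promoter, taken as 250 bases before to 50 after the annotated start, held a covered base in any library for any of the 10 genes, and among the marked genes the share was 1.86% in MEF, 1.83% in MEF B12, 2.79% with OSKM and 1.96% with OSKM B12.

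The covered share is the percent of the gene body that lies in called peaks. Density is the pileup inside peaks per 1000000 H3K36me3 tags, summed over the body and divided by its length, so that genes of different length can be compared, and bases outside peaks count as 0. A drop in density can thus come from fewer called bases, from lower pileup, or from both.

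The 10 genes lay somewhat below the marked genes in median covered share and in median density in every library. Their median covered share was 45.5% in MEF, 45.1% in MEF B12, 29.8% with OSKM and 48.2% with OSKM B12, against 50.3%, 54.0%, 30.4% and 54.6% for the marked genes. Median density was 0.279 in MEF, 0.306 in MEF B12, 0.136 with OSKM and 0.325 with OSKM B12, against 0.286, 0.340, 0.141 and 0.357. OSKM was the lowest library for 9 of the 10 genes in covered share and in density, the exception in both being Mmachc, which was lowest in MEF.

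**Figure D1:**
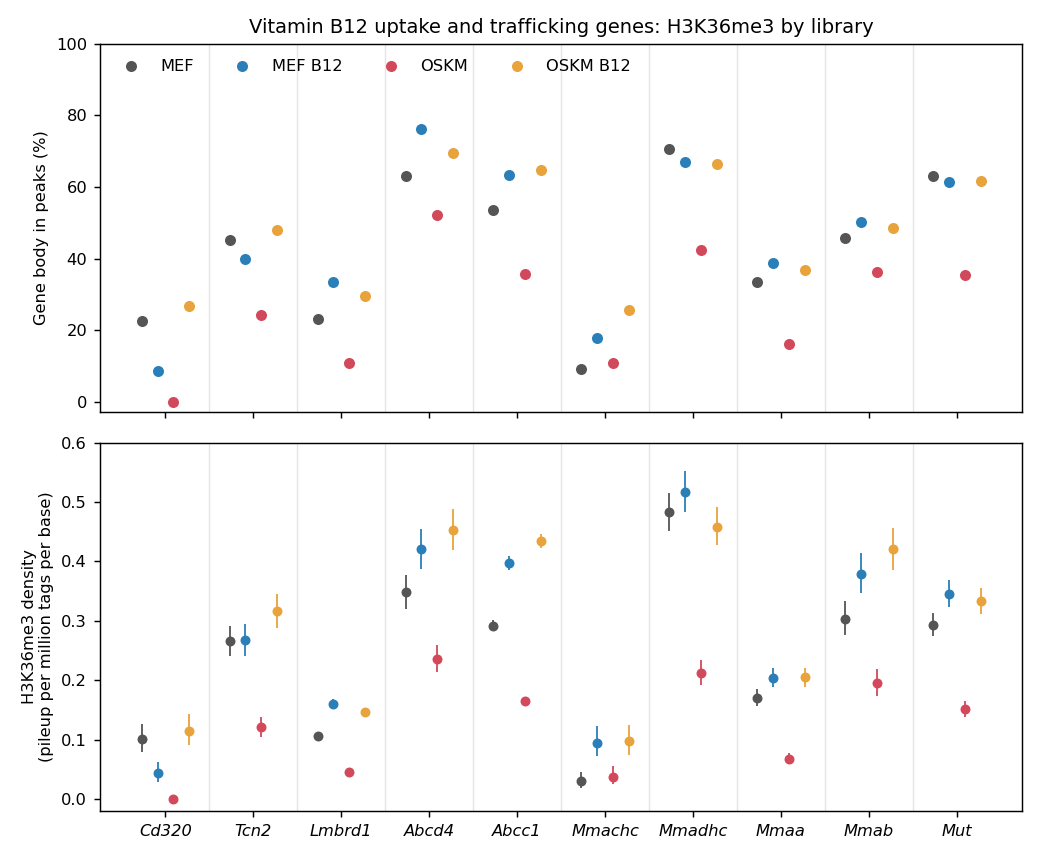
Share of each gene body in H3K36me3 peaks (upper, percent) and H3K36me3 density (lower, pileup per 1000000 tags and base of body) of the 10 vitamin B12 genes, 1 point per library, with exact 95% Poisson intervals for counting error on the densities (none is drawn where no peak was called). The OSKM points lie lowest for every gene except Mmachc, with Cd320 at 0.

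Cd320, 1 of the 2 uptake genes, had peaks in every library except OSKM. It encodes the receptor that binds the transcobalamin–vitamin B12 complex at the cell surface. It lies on chromosome 17 (33843091 to 33849774, plus strand, 5 exons, 6.68 kb), and its covered share was 22.6% in MEF, 8.60% in MEF B12, 0% with OSKM and 26.8% with OSKM B12. Density followed the same order, at 0.101 (95% counting interval 0.0791 to 0.126), 0.0435 (0.0291 to 0.0624), 0 and 0.115 (0.0909 to 0.144). Cd320 was the only member without any peak in a library, a state that held for 3.47% of marked genes in OSKM, 1% in MEF, 0.502% in MEF B12 and 0.399% in OSKM B12.

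All Cd320 peaks sat at the end of the gene. In MEF a peak of 1510 bases ran from intron 3 into exon 5, and in OSKM B12 one of 1793 bases ran from exon 3 into exon 5. In MEF B12 the same stretch held only a peak of 413 bases across exon 4, whose first 300 bases are printed above, and a second of 635 bases ran from exon 5 past the end of the gene. These peaks were weak, with −log10 q between 2.50 and 3.28 and fold enrichment over input between 2.71 and 2.88, and at a cut of −log10 q of 5 Cd320 had no peak in any library. Because the lists hold only what passed the caller, the 0 in OSKM says that nothing was called there, not that the mark was absent, and no fold is given against it. The upstream neighbour Ndufa7, whose end lies 4773 bases before the start of Cd320, kept 62.8% of its body covered in OSKM, against 71.6% to 75.8% in the other libraries.

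Tcn2 encodes transcobalamin, the carrier that Cd320 binds. Its covered share (chromosome 11, 3917192 to 3932159, minus strand, 10 exons) was 45.3% in MEF, 39.9% in MEF B12, 24.2% with OSKM and 48.0% with OSKM B12, and its density was 0.265, 0.267, 0.121 and 0.316. MEF and MEF B12 were thus level in density although less of the body was called in MEF B12. The central region, between intron 2 and intron 8, was marked in every library, with a peak of 5245 bases in MEF and of 5554 bases in MEF B12, 2 peaks of 1829 and 3570 bases in OSKM B12, and 3 peaks of at most 1742 bases in OSKM. At the end of the gene a further peak, reaching 181 to 470 bases past the last annotated base, was called in MEF, MEF B12 and OSKM B12 and not in OSKM. It did not reach Slc35e4, which lies 2527 bases further on and had 12.4% (OSKM) to 32.1% (OSKM B12) of its body covered.

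Export from the lysosome depends on LMBRD1 and ABCD4, membrane proteins that act together. Lmbrd1 is long (chromosome 1, 24678926 to 24766301, plus strand, 87.4 kb, 16 exons) and sparsely marked, with 23.1% covered in MEF, 33.3% in MEF B12, 10.8% with OSKM and 29.4% with OSKM B12. Its density was 0.106 in MEF, 0.160 in MEF B12, 0.0450 with OSKM and 0.146 with OSKM B12. The mark was scattered, over 18 peaks in MEF, 22 in MEF B12, 11 with OSKM and 19 with OSKM B12, and the stretch from intron 7 to intron 9 held a peak in every library.

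Abcd4 (chromosome 12, 84602640 to 84617413, minus strand, 18 exons) was covered over more of its length than Lmbrd1. Its covered share was 63.0% in MEF, 76.2% in MEF B12, 52.1% with OSKM and 69.5% with OSKM B12, the highest of the 10 genes in every library but MEF, where Mmadhc and Mut were higher. Density was 0.348, 0.421, 0.236 and 0.453. In OSKM, Abcd4 had the highest density of the 10 genes, with a counting interval (0.213 to 0.260) that overlapped those of Mmadhc and Mmab. Its log2 change from MEF to OSKM, −0.48, was the smallest fall among the 9 that went down. The genes of the lysosomal pair thus lay far apart in level, with Lmbrd1 below Abcd4 in each library.

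Abcc1 encodes an efflux pump (MRP1) that can carry free vitamin B12 out of the cell. It is the longest member (chromosome 16, 14361560 to 14475737, plus strand, 114 kb, 31 exons) and the one with the most counts behind its values, 2186 to 5036 estimated tags per library. Coverage was 53.7% in MEF, 63.5% in MEF B12, 35.7% with OSKM and 64.7% with OSKM B12, and density was 0.292 (0.282 to 0.301), 0.397 (0.385 to 0.408), 0.165 (0.158 to 0.172) and 0.435 (0.423 to 0.447). No pair of these counting intervals overlapped. In OSKM the marked region fell into more and shorter peaks, with 29 peaks of which the longest had 4605 bases inside the body, against 14 peaks and 23146 bases in OSKM B12. MEF had 24 peaks, the longest of 17769 bases, and MEF B12 had 17, the longest of 16373. Exons were covered at 87.4% to 98.8% in all 4 libraries, and introns at 32.4% in OSKM and 51.0% to 62.6% in the others.

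**Figure D2:**
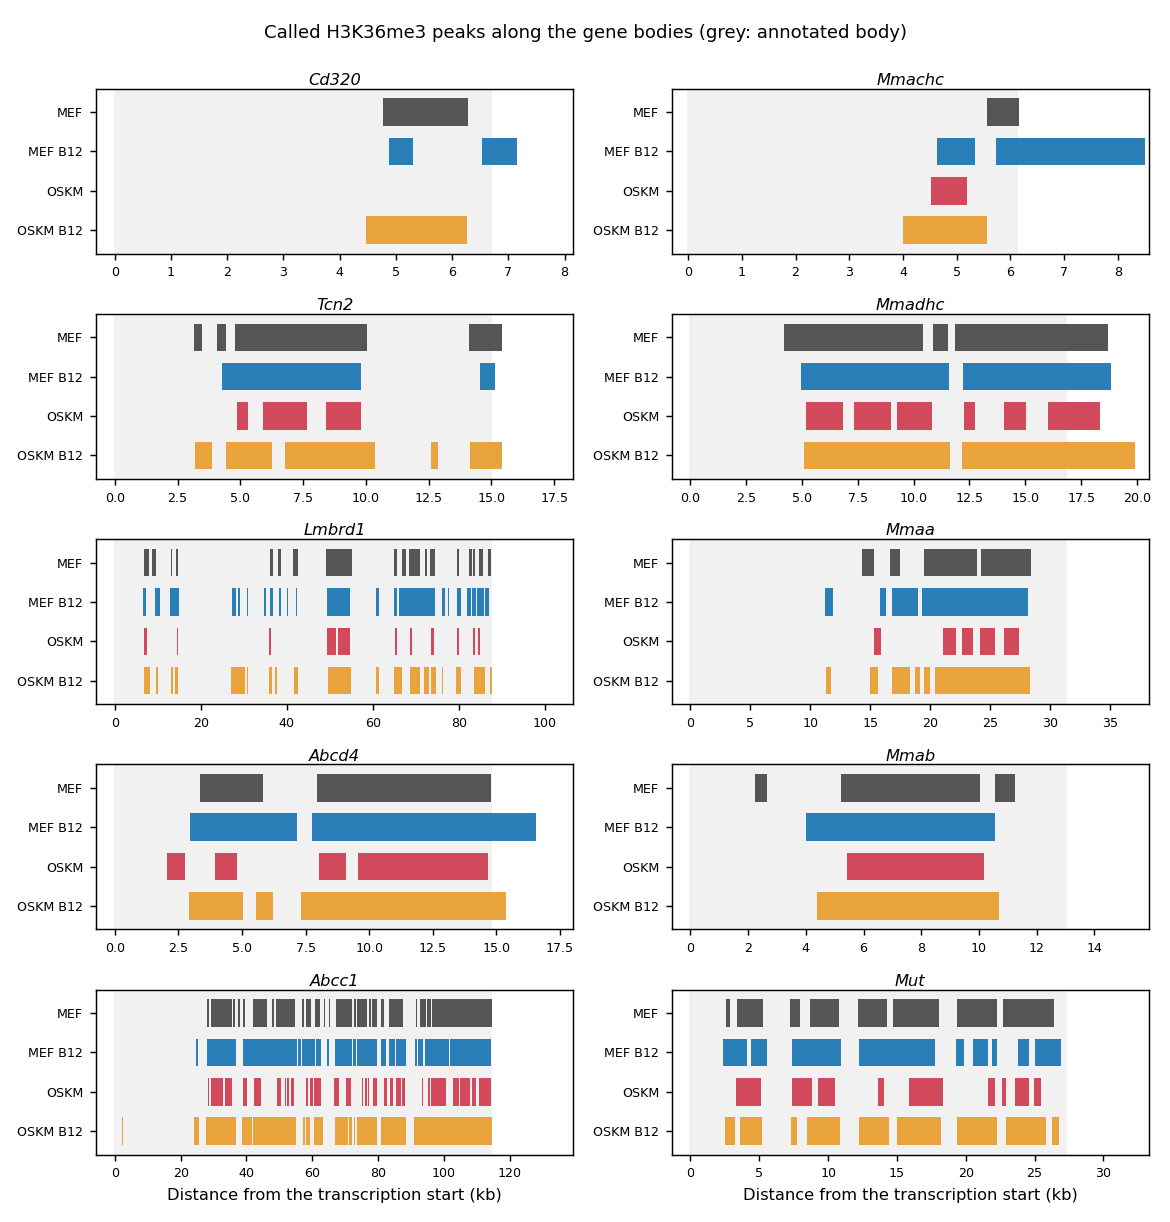
Called H3K36me3 peaks along the 10 gene bodies, by distance from the annotated transcription start (kb), 1 track per library, with the body shaded in grey. Coverage lay away from the start, the long genes Lmbrd1 and Abcc1 were marked in many pieces, and the only empty track is Cd320 in OSKM.

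Cytosolic processing is carried out by MMACHC, which removes the upper ligand of the vitamin, and MMADHC, which directs the product to either enzyme. Mmachc (chromosome 4, 116702279 to 116708406, minus strand, 4 exons) was the member with the lowest density in MEF and OSKM B12, and it alone was not lowest in OSKM. Its covered share was 9.20% in MEF, 17.9% in MEF B12, 10.8% with OSKM and 25.5% with OSKM B12. Density was 0.0299 (0.0179 to 0.0452), 0.0944 (0.0720 to 0.123), 0.0378 (0.0250 to 0.0553) and 0.0969 (0.0736 to 0.124). The intervals of MEF and OSKM overlapped, as did those of the B12 libraries, while each B12 library lay above both libraries without the vitamin. For MEF B12 this rested on a peak that Mmachc shares with a neighbour: without it the density was 0.0510 (0.0344 to 0.0719, 31 estimated tags), which overlapped both MEF and OSKM and lay below the interval of OSKM B12.

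The near-equal shares of Mmachc in MEF and OSKM did not come from the same bases. The MEF peak (116702249 to 116702842) covered the end of the last exon, and the OSKM peak (116703218 to 116703878) covered the part of that exon nearer its start, so that no base was shared. OSKM B12 had 1 peak from 116702843 to 116704407, and MEF B12 had a peak from 116703075 to 116703781 and another from 116699902 to 116702667. The latter, the strongest on Mmachc with −log10 q of 6.82 and fold enrichment of 4.02, also touched the body of Prdx1, a peroxiredoxin gene on the opposite strand whose end lies 1456 bases away and which was 69.6% to 83.7% covered. With that peak left out, an alternative chosen after the data were seen, the log2 change of Mmachc was 0.34 in place of 0.85 from MEF to MEF B12, and 0.54 in place of 0.02 from MEF B12 to OSKM B12. The other Mmachc peaks had −log10 q of 1.62 in MEF, 2.81 in MEF B12, 1.74 with OSKM and 2.39 with OSKM B12. On the other side, Ccdc163 starts 102 bases from the start of Mmachc and was 3.46% to 10.3% covered, and no peak touched both.

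Mmadhc (chromosome 2, 50279881 to 50296717, minus strand, 8 exons) had the highest density of the 10 genes in MEF, MEF B12 and OSKM B12, in the last of these with a counting interval that overlapped that of Abcd4. Its covered share was 70.6% in MEF, 67.0% in MEF B12, 42.5% with OSKM and 66.5% with OSKM B12, and the densities were 0.483 (0.452 to 0.515), 0.517 (0.483 to 0.553), 0.212 (0.193 to 0.234) and 0.459 (0.427 to 0.492). In OSKM it fell from the highest rank to below Abcd4, though their counting intervals overlapped there. What had been 3 peaks in MEF and 2 in each B12 library was 6 peaks, the longest with 1681 bases inside the body. The last peak ran 1492 bases past the annotated end in OSKM and 1848 to 3088 bases past it in the others. Mmadhc was also the only gene whose density in OSKM B12 was below that in MEF (log2 change −0.07), and the counting intervals of those 2 libraries overlapped.

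The mitochondrial branch holds MMAA, a GTPase that guards the loading of the mutase, MMAB, which makes adenosylcobalamin, and the mutase itself, which converts methylmalonyl-CoA to succinyl-CoA. Mmaa (chromosome 8, 79263598 to 79294937, minus strand, 7 exons) was 33.4% covered in MEF, 38.8% in MEF B12, 16.2% with OSKM and 36.9% with OSKM B12, at densities of 0.170, 0.204, 0.0676 and 0.205. Its mark began far into the gene, with the first covered base between 11.2 and 15.3 kb from the start, and an OSKM track of 5 peaks with no stretch over 1290 bases stood where the other libraries each had a stretch of at least 4443 bases.

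Mmab (chromosome 5, 114431034 to 114444060, minus strand, 9 exons) carried the best-enriched peak of the 10 genes in MEF, MEF B12 and OSKM B12. This peak lay in the middle of the gene, with fold enrichment over input of 4.65 in MEF, 5.15 in MEF B12, 3.35 with OSKM and 5.34 with OSKM B12. Those values were above 98.0%, 97.8%, 93.1% and 98.1% of all peaks in the same list. Covered shares were 45.6%, 50.3%, 36.3% and 48.5%, and densities 0.304, 0.379, 0.195 and 0.421. From MEF to OSKM its covered share fell by 9.33 percentage points, the least among the 9 genes in which it fell, and the OSKM peak remained 1 unbroken stretch of 4726 bases. The neighbouring start of Mvk, which encodes mevalonate kinase, lies 245 bases from that of Mmab in the opposite direction, and Mvk was 61.3% covered in MEF, 68.9% in MEF B12, 46.6% with OSKM and 66.8% with OSKM B12.

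Mut (chromosome 17, 40934685 to 40961988, plus strand, 13 exons) was 63.1% covered in MEF, 61.5% in MEF B12, 35.3% with OSKM and 61.7% with OSKM B12, with densities of 0.294, 0.346, 0.151 and 0.333. Covered shares outside OSKM thus lay within 1.57 percentage points of each other, and the number of peaks was 8 in MEF and 9 in each of the others. Cenpq, a centromere protein gene on the opposite strand that shares its first 363 bases with the start of Mut, had 37.2% of its body covered in MEF, 42.1% in MEF B12, none with OSKM and 13.2% with OSKM B12. No peak touched both genes, so the values of Mut do not include those of Cenpq.

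The first comparison asks how OSKM induction without added vitamin changed the mark. From MEF to OSKM, 9 of the 10 genes had lower density and 1, Mmachc, higher, while relative to the median change of the marked genes 6 lay lower and 4 higher. Lower density held for 98% of the marked genes, so the count follows the background. The log2 change, taken on density plus a pseudocount of 0.05, had a median of −0.74 over the 10 genes and −0.71 over the marked genes. Past 2-fold lower were Mmadhc (−1.02) and Cd320, whose value rests on the pseudocount since it had no peak in OSKM, which is 2 of 10 against 18.7% of the marked genes. None was past 2-fold higher, against 0.0114%. Next in size came Mmaa (−0.91), Tcn2 (−0.88), Mut (−0.77), Lmbrd1 (−0.71), Abcc1 (−0.67) and Mmab (−0.53), and the last 2 and Abcd4 fell by less than the marked genes at the median. This order holds at the pseudocount used, and at 0.01 Mmaa (−1.22) fell further than Mmadhc (−1.15). Covered share fell in 9 of 10 genes, against 95% of the marked genes, and rose in Mmachc, against 4.22%. The OSKM library also had the shortest called length over the genome, and its part in these changes was not tested.

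Strong peaks were missing from the 10 genes in OSKM. A peak with −log10 q of at least 5 was present on 5 of the 10 genes in MEF, 9 in MEF B12, none with OSKM and 7 with OSKM B12. Among the marked genes the share was 70.3% in MEF, 77.6% in MEF B12, 21.4% with OSKM and 80.4% with OSKM B12. The strongest member in OSKM by this measure was Mut, at 4.88. Cd320 was the only gene to miss this mark in all 4 libraries, and Mmaa reached it only in MEF B12 (5.06), as did Mmachc (6.82).

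The second comparison asks what added vitamin B12 did under OSKM. From OSKM to OSKM B12 all 10 genes had higher density, while relative to the median change of the marked genes 5 lay higher (Cd320, Tcn2, Lmbrd1, Abcc1 and Mmaa) and 5 lower. Higher density held for 99.4% of the marked genes. The median log2 change was 1.00 over the 10 genes and 0.98 over the marked genes. Past 2-fold were 5 of 10, against 46.5% of the marked genes: Abcc1 (1.17), Mmaa (1.11), Tcn2 (1.10), Lmbrd1 (1.04) and Cd320, for which no fold is given. At the pseudocount used, the other 5 lay between 0.74 (Mmachc) and 0.96 (Mmadhc). Without it their density ratios were 2.56 in Mmachc, 2.21 in Mut, 2.16 in Mmadhc, 2.15 in Mmab and 1.92 in Abcd4. Covered share rose in all 10, by 12.2 percentage points in Mmab to 29.0 in Abcc1, and rose in 97.7% and fell in 1.95% of the marked genes. No gene fell past 2-fold, against 0.0228%. Without the division by tags the median change of the marked genes shifted by −0.13 in this comparison and by −0.14 from MEF to MEF B12.

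**Figure D3:**
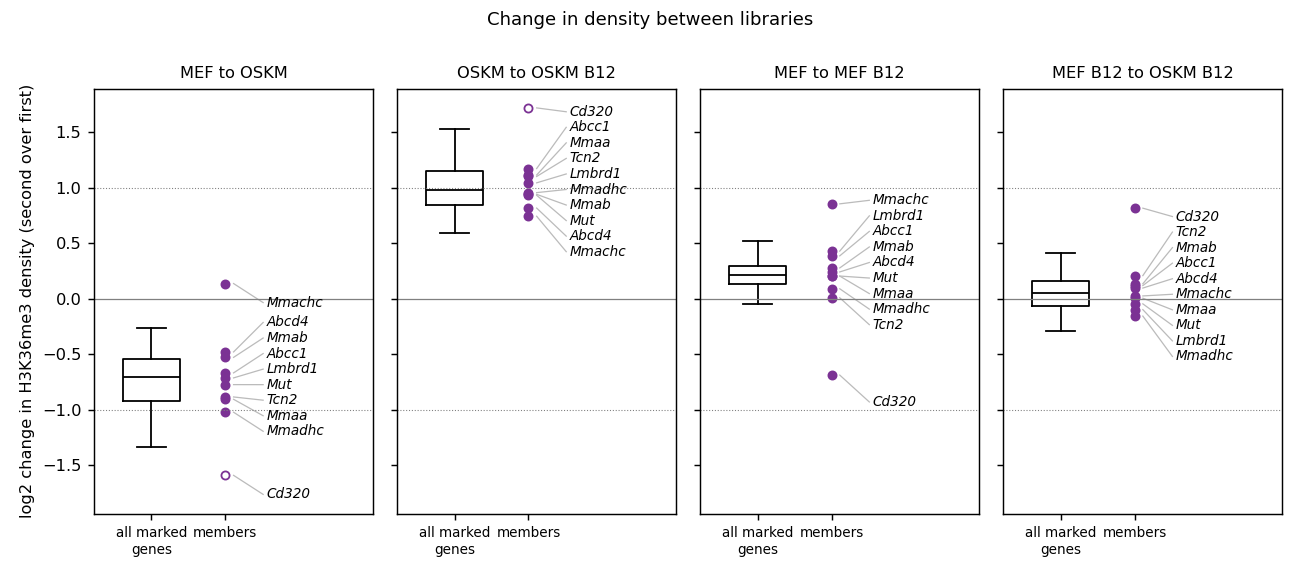
log2 change in H3K36me3 density (second library over first, pseudocount 0.05) for the 10 genes beside all 8766 marked genes, shown as a box from the 25th to the 75th percentile with the median and whiskers to the 5th and 95th percentiles. Dotted lines mark 2-fold and the open circle is Cd320 in comparisons with OSKM, where it had no peak. Members lie on both sides of the box medians (−0.71, 0.98, 0.21 and 0.05), so that relative to these medians 6, 5, 5 and 5 of the 10 genes lie below.

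The third comparison, vitamin B12 without OSKM, gave small changes in most of the 10 genes. From MEF to MEF B12 density was higher in 9 genes and lower in Cd320, with Tcn2 (0.01) and Mmadhc (0.09) turning negative when the pileup was not divided by tags. The background was 92.2% higher and 7.53% lower, and the medians were 0.22 for the 10 genes and 0.21 for the marked genes. None passed 2-fold, as against 0.73% of marked genes higher and 0.125% lower. Farthest from the others were Mmachc at 0.85, in part through the peak it shares with Prdx1, and Cd320 at −0.69. Then came Lmbrd1 (0.43) and Abcc1 (0.39). Covered share did not track density here: it was lower in Cd320, Tcn2, Mmadhc and Mut and higher in the other 6, against 27.9% lower and 71.6% higher among the marked genes.

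The last comparison, of the libraries with added vitamin, set MEF B12 beside OSKM B12. Density was higher in 7 genes and lower in Lmbrd1 (−0.10), Mmadhc (−0.16) and Mut (−0.05), against 62% higher and 37.9% lower among the marked genes. With fold enrichment in place of the pileup the values of Abcd4, Mmaa and Mmab were negative, at −0.10, −0.24 and −0.0016. The median was 0.06 for the 10 genes, or −0.027 with fold enrichment, and 0.05 for the marked genes. At the pseudocount of 0.05 none of the 10 passed 2-fold, against 0.57% higher and 0.342% lower. Cd320 had the largest difference, 0.82, from a density of 0.0435 in MEF B12 to 0.115 in OSKM B12. Without the pseudocount its density ratio was 2.63. The other 9 genes lay between −0.16 and 0.21, and Mmachc reached 0.54 without the peak it shares with Prdx1. Covered share was lower in 5 genes and higher in 5, against 47.7% and 52% of the marked genes. From MEF to OSKM B12, with both additions, density was higher in 9 genes and lower in Mmadhc, against 91.7% and 8.15%, and covered share was higher in 8 and lower in 2, against 71.4% and 28.2%. None passed 2-fold in that comparison at the pseudocount of 0.05, against 1.31% higher and 0.16% lower. Without the pseudocount the density ratio of Mmachc there was 3.24. The third comparison and that of the B12 libraries both use MEF B12, and the first pair of comparisons both use OSKM. MEF to OSKM B12 shares a library with each of these. The values of the comparisons are thus not independent of each other. In 6 genes (Cd320, Tcn2, Abcd4, Abcc1, Mmaa and Mmab) density was lower in OSKM than in MEF and higher in OSKM B12 than in MEF B12, against 60.6% of the marked genes. For Mmaa the second of these differences was only 0.0046. Relative to the median changes of the marked genes, only Cd320 and Tcn2 kept both directions. Cd320 alone was lower in MEF B12 than in MEF and higher in OSKM B12 than in OSKM, against 7.39%.

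The pileup was also compared over the bases called in every one of the 4 libraries. Each base carries the mean pileup of its whole peak, which moves with the extent called, and only bases that were called in OSKM too can enter. In the comparisons with the OSKM library these ratios thus lie nearer 1 than those of the bodies in part by construction. Of the 10 genes, 8 had such bases, from 3107 in Tcn2 to 35719 in Abcc1, and Cd320 and Mmachc had none. Over these bases the MEF to OSKM ratio ran from 0.710 in Mmadhc (95% counting interval 0.622 to 0.810) to 0.961 in Mut (0.825 to 1.12), and only the interval of Mut reached 1. From OSKM to OSKM B12 the ratio ran from 1.25 in Lmbrd1 (1.09 to 1.43) to 1.59 in Mmab (1.37 to 1.86), and all 8 intervals lay above 1. From MEF to MEF B12 only Abcc1 (1.14, 1.08 to 1.21) and Mut (1.29, 1.11 to 1.49) had intervals above 1. Between the B12 libraries Abcc1 alone did so (1.06, with a lower bound of 1.00 after rounding and an upper bound of 1.12).

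In log2 terms the median over the 8 genes was −0.30 from MEF to OSKM and 0.45 from OSKM to OSKM B12, against −0.32 and 0.53 for the marked genes with shared bases. In Mut, density fell to 0.514 of the MEF value in OSKM while the pileup over its shared bases was at 0.961. In Mmadhc both moved, to 0.440 and 0.710.

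**Figure D4:**
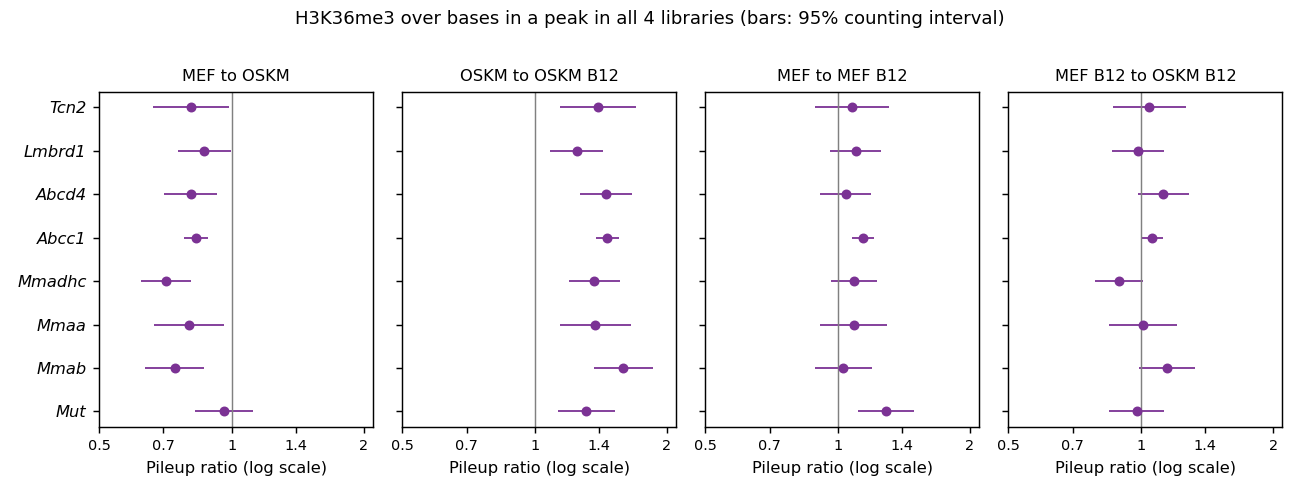
Ratio of H3K36me3 pileup per 1000000 tags (second library over first, log axis) over bases in a peak in all 4 libraries, for the 8 genes that have such bases, with exact 95% intervals for counting error. All ratios lie below 1 from MEF to OSKM and above 1 from OSKM to OSKM B12, and most intervals of the other comparisons span 1.

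Along the bodies, the mean covered share of the 10 genes was low at the start, and in MEF B12, OSKM and OSKM B12 it was highest in the next-to-last 20% of the body rather than the last. Over the first 20% of the body the mean covered share was 7.41% in MEF, 7.59% in MEF B12, 6.34% with OSKM and 6.45% with OSKM B12, against 13.2%, 14.6%, 7.08% and 15.1% in the marked genes. Over the last 20% it was 62.5%, 55.6%, 31.7% and 63.4%, against 72.1%, 75.0%, 52.3% and 74.8%. In OSKM 7 of the 10 genes had a covered base there, against 88.8% of the marked genes, and in MEF, MEF B12 and OSKM B12 all 10 did, against 95.2%, 95.9% and 96.1%. The last annotated base itself lay in a peak for 5 genes in MEF, 6 in MEF B12, 2 in OSKM (Abcc1 and Mmadhc) and 5 in OSKM B12, against 63.7%, 67%, 42.1% and 65.3% of the marked genes. Mmab illustrates the early end, since its peaks stopped before the last exon in MEF B12, OSKM and OSKM B12 and only 14.8% of its exon bases were covered there. In 8 of the 10 genes exons were covered more than introns in MEF, MEF B12 and OSKM B12, and in 6 of 10 in OSKM. The share of marked genes was 80.2% in MEF, 80% in MEF B12, 76.9% with OSKM and 79.1% with OSKM B12.

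**Figure D5:**
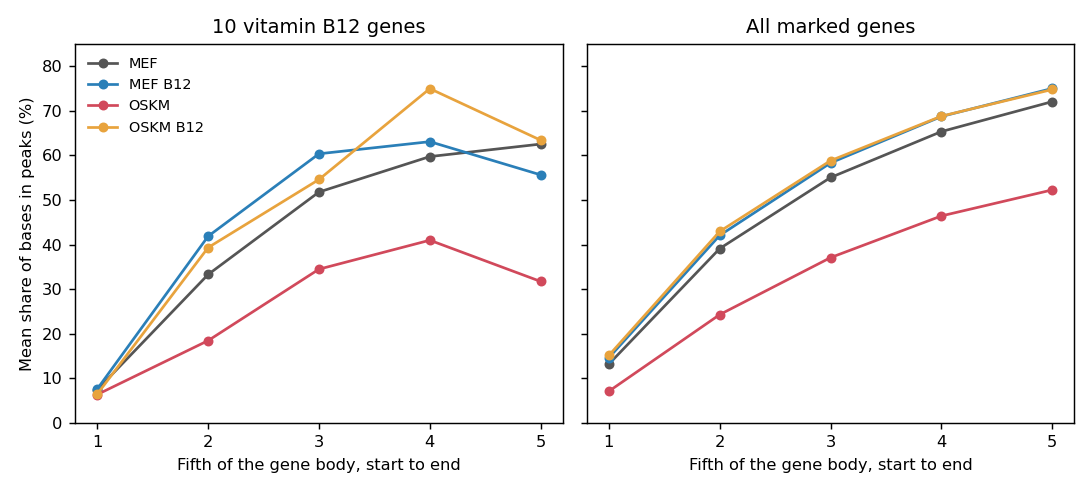
Mean share of bases in H3K36me3 peaks (percent) in successive stretches of 20% of the gene body, from start to end, for the 10 vitamin B12 genes (left) and all marked genes (right), 1 line per library. The last stretch held 62.5%, 55.6%, 31.7% and 63.4% for the 10 genes in MEF, MEF B12, OSKM and OSKM B12, and 72.1%, 75.0%, 52.3% and 74.8% for the marked genes.

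The other genes of the pathway were taken as 4 lists with 16 genes. The methionine synthase branch was marked in both its members. Mtr, methionine synthase, was 74.1% covered in MEF, 79.1% in MEF B12, 39.5% with OSKM and 78.9% with OSKM B12. Mtrr, its reductase, was 51.1%, 71.3%, 39.3% and 78.5% covered. Both were lower in OSKM than in MEF, by log2 changes of −0.93 and −0.48, and past 2-fold higher in OSKM B12 than in OSKM, at 1.24 and 1.21.

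In the propionate branch, which leads to and from the mutase, 4 of 7 genes were marked: Pccb, Suclg1, Sucla2 and Acsf3. Among all protein-coding genes, with any number of exons, 9885 of 21853 were marked. All 4 were lower in OSKM, Pccb (−1.14) and Sucla2 (−1.11) past 2-fold and Suclg1 (−0.60) and Acsf3 (−0.42) not, and all 4 were higher in OSKM B12 than in OSKM, Pccb (1.28) and Sucla2 (1.12) past 2-fold. Pccb encodes the beta subunit of propionyl-CoA carboxylase and Sucla2 that of the ATP-forming succinyl-CoA ligase. Pcca, for the alpha subunit of the carboxylase, and Suclg2, for the beta subunit of the GTP-forming ligase, had at most 1.66% and 1.34% of their long bodies covered. Mcee, an epimerase gene of 3 exons, reached 7.05% in OSKM B12.

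Cubn, Amn, Lrp2 and Gif, the genes for uptake in gut and kidney, had no peak in any library. Of the factors that act at the promoter of the human gene MMACHC, Hcfc1 (64.3% to 86.0% covered) and Zfp143 (49.8% to 76.3%) were marked and Thap11, a gene of 1 exon, had no peak. Over the 4 lists, 8 of 16 genes were marked, against 9885 of 21853 protein-coding genes, or 8766 of 16332 with at least 4 exons. All 8 marked pathway genes were lower from MEF to OSKM (2 past 2-fold) and higher from OSKM to OSKM B12 (5 past 2-fold). Among all marked genes 98% were lower in the first of these (18.7% past 2-fold) and 99.4% higher in the second (46.5% past 2-fold). The median log2 changes of the 8 marked pathway genes in these comparisons were −0.67 and 1.12, against −0.71 and 0.98 over all marked genes.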

How the data were processed

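H3K36me3 and input DNA were sequenced from 4 conditions, 8 libraries in all. Per the submitters' processing notes the authors aligned reads with Bowtie 0.12.9 to mm10 and called broad peaks with MACS2 2.2.6, 1 list per H3K36me3 library against the input of its condition. Per the file headers, reads were 75 bases, the fragment length was 288 to 292 bases, the effective genome size was 3209286105, inputs held 34524486 to 36150875 tags, and the q cut-offs were 0.05 (strong) and 0.1 (broad). The deposited lists give, for each peak, its position, its mean pileup (signal, not divided by depth), −log10 p-value and q-value, and fold enrichment (a ratio) over input. Values outside peaks are not in such a list, so the analysis cannot tell weak mark from none.

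Peaks were intersected with gene bodies in Python 3.11.15 (numpy 2.4.6, scipy 1.17.1, matplotlib 3.10.9). The pileup was divided by the library's H3K36me3 tags and multiplied by 1000000. log2 changes used density plus 0.05. Tags were estimated as pileup times bases over fragment length. Intervals are exact 95% Poisson (density) and Clopper–Pearson (ratio) intervals. They cover counting error only. The interval code was tested on simulated data. A 2-fold change (log2 of 1) was taken as the threshold. The genes named are the 10 members, the 16 pathway genes, the cell type markers and any protein-coding gene overlapping a member or within 5 kb of it. The members and lists were chosen with earlier results of these data known. Promoter windows came from the annotated starts, because the RefSeq promoter table held 5 of the 10 genes, and sequences from the RefSeq copy of GRCm38.p6. Peak thresholds, equal peak numbers (65474 per list), bases compared, scaling, measure, pseudocount, gene body, centring, fold threshold and the exon minimum were varied. The sequence of 1 window is not reported here.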

Additional observations from a re-analysis of the deposited data

Results flagged for a closer look

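The OSKM effect went in opposite directions without and with added vitamin B12 in 6 of the 10 genes: density was lower in OSKM than in MEF and higher in OSKM B12 than in MEF B12. The second log2 change minus the first was 2.41 in Cd320, 1.09 in Tcn2, 0.91 in Mmaa, 0.79 in Abcc1, 0.66 in Mmab and 0.58 in Abcd4. This pattern held for 60.6% of the marked genes. The difference was not tested, since each condition had 1 library. In Abcd4, Mmaa and Mmab the second change was negative when fold enrichment replaced the pileup (−0.10, −0.24 and −0.0016). In Mmaa it was only 0.0046, and was −0.039 with equal numbers of peaks and −2.09 with peaks of −log10 q of at least 5, a cut at which it was −0.0088 in Abcc1. After centring on the median of the marked genes, the first change was positive in Abcd4 (0.23), Abcc1 (0.040) and Mmab (0.18). The second was then negative in Mmaa (−0.044), and only Cd320 and Tcn2 kept opposite directions.

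Cd320 had lower density in MEF B12 than in MEF but higher density in OSKM B12 than in OSKM. This combination held for 7.39% of the marked genes. The log2 change from OSKM to OSKM B12 minus that from MEF to MEF B12 was 2.41. This value equals the Cd320 difference above by construction, since both combine the same densities, and is not a separate observation. The difference was not tested. It rests on weak peaks, the OSKM value depends on the pseudocount because no peak was called there, and the MEF B12 value on 29 estimated tags.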

How the results depend on the processing

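No paired analysis was possible because only 1 H3K36me3 library stood for each condition. The median of the 10 genes changed sign in 1 case, the comparison of the B12 libraries with fold enrichment in place of pileup (−0.027 against 0.06). Of 120 recomputed medians, counts and covered shares, 86 stayed within limits (1.5 times for a count, the middle 8 of the 10 members for a median or share) and 34 did not.

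The count past 2-fold from MEF to OSKM, 2 in the analysis described, was 5 with peaks of −log10 q of at least 5 or a pseudocount of 0.01, 1 without division by tags or with fold enrichment, 7 at a 1.5-fold threshold, and 0 over shared bases, with a pseudocount of 0.2 or after centring on the marked genes. The count from OSKM to OSKM B12, 5, was 9 with a pseudocount of 0.01, 10 at 1.5-fold, 3 with fold enrichment, 2 without division by tags, and 0 over shared bases, with a pseudocount of 0.2 or after centring. From MEF to MEF B12 the count of 0 became 1 at −log10 q of 5, 2 with a pseudocount of 0.01 and 2 at 1.5-fold, and between the B12 libraries it became 1 in each of these.

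The median from MEF to OSKM was −1.05 at −log10 q of 5, −0.30 over shared bases, −0.45 with a pseudocount of 0.2 and −0.035 after centring. From OSKM to OSKM B12 it was 1.90, 0.45, 0.63 and 0.019 under the same alternatives, and 1.24 with a pseudocount of 0.01. From MEF to MEF B12 it was 0.48 at −log10 q of 5. At that cut the median covered share was 13.3% in MEF, 0% in OSKM and 23.4% in OSKM B12. The stricter cut, the threshold, the pseudocount and the centring change these values by construction. The cause of the other shifts was not tested. Taking genes with any number of exons moved only the share of marked genes past 2-fold in either direction, to 1.53% from MEF to MEF B12 and 1.79% between the B12 libraries (0.856% and 0.913% in the analysis described), and from 18.7% to 19.5% and 46.5% to 46.8% from MEF to OSKM and from OSKM to OSKM B12. Changing the gene body or the number of peaks, leaving out bases or peaks shared with other genes, and requiring a fold enrichment of 2 kept each of these counts and medians within those limits.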
